A study of Mus musculus with 18 samples.

Results

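The BCL2 family apoptosis regulators described here are 10 genes (Bbc3, Pmaip1, Bcl2l11, Bmf, Bid, Bcl2, Bcl2l1, Mcl1, Bax and Bak1), taken by gene name out of 55335 gene identifiers counted in bulk RNA-seq of O9-1 cells. The family was chosen by the d2.5 levels of Bbc3, which were higher with FGF2 and lower with the Yap/Taz knockdown, so every d2.5 value below is a description with no test, and the tests concern d5 and the change between days. O9-1 is a multipotent neural crest (NC) line with a wild-type genotype that was first isolated from the head of mouse embryos, and here all cells, controls included, were kept in osteoblast differentiation medium and received siRNA. Ctrl+vehicle cells received scrambled siRNA and no FGF2. Ctrl+FGF2 cells received the scrambled siRNA and FGF2, and Y/T dKD+FGF2 cells received a pool of siRNAs against Yap and Taz together with FGF2. Each group held 3 libraries at d2.5 and 3 at d5, 18 in all. There was no knockdown without FGF2, the cells came from 1 line, and the labels give the day itself as the batch, so day and batch cannot be told apart. No source used here says that the 3 libraries of a group came from separate cultures, so p-values measure only the spread between these libraries, which may be technical.

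Proteins of the BCL2 family decide whether the outer membrane of the mitochondrion stays closed. Pro-survival members (Bcl2, Bcl2l1 and Mcl1) hold the effectors Bax and Bak1 in check, and BH3-only members (Bbc3, Pmaip1, Bcl2l11, Bmf and Bid) bind the pro-survival proteins or the effectors and so favour pore formation, release of cytochrome c and caspase activation. BH3-only genes are controlled largely at transcription, Bbc3 and Pmaip1 by p53 among others, and Bcl2l11 and Bmf by FOXO factors and growth factor withdrawal. The counts measure polyadenylated RNA per gene, not protein, and Mcl1 and Bcl2l1 also make short isoforms with the opposite action that a count per gene cannot separate.

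Counts on genes ranged from 10377151 to 14698525 per library. Yap1 RNA in Y/T dKD+FGF2 was 51.9% of its level in Ctrl+FGF2 at d2.5 and 46.2% at d5, and Wwtr1 (the gene of Taz) was 61.2% and 57.7%, with no overlap of libraries. Of 10 NC markers 9 were detected, which here means any count in any library. Ngfr, among these 9, held 16 counts over all libraries and at most 0.449 CPM. Prrx1, Twist1, Snai2 and Tfap2a were expressed in every group, while Sox10 had 0 counts in all libraries, which allows up to 0.193 to 0.305 CPM (3 counts, counting error only). All 7 osteoblast markers were detected, and their summed level, of which Col1a1 alone made up 62.7% to 98.6% as group means, moved with the groups. At d2.5 it lay between 13260 and 13418 CPM in Ctrl+vehicle, 2742 and 2893 in Ctrl+FGF2, and 3158 and 3231 with the knockdown, and between 31100 and 33114, 15865 and 17619, and 21945 and 23323 at d5 in that order. Single markers differed from the sum: with FGF2 at d5, 3 of the 7 rose and 4 fell. Within d5, the bone-forming factors Runx2 (137 CPM as the group mean) and Sp7 (35.8 CPM) were lowest in Ctrl+vehicle. The summed level of 4 smooth muscle markers was 13.7 to 231 CPM at d2.5 and 2032 to 3070 at d5. Most of it was Acta2, with 243355 counts over all libraries against 8902 for Tagln, 105 for Cnn1 and 51 for Myh11. The summed level of 4 chondrocyte markers was 542 to 764 CPM in d2.5 Ctrl+vehicle. It was 40.0 to 49.9 CPM in both other d2.5 groups and 179 to 351 CPM at d5. Col2a1 held 44858 of these counts and Acan 15209, against 268 for Col9a1 and 364 for Comp. Markers of glia and neurons (4 of 5 detected, Elavl3 at 0) summed to at most 26.3 CPM, of leukocytes (4 of 5, Lyz2 at 0) to at most 5.50 and of endothelium (3 of 4, Cdh5 at 0) to at most 3.87. Adgre1 of the leukocyte markers and Kdr of the endothelial markers held only 1 count each over all libraries. The part of these markers in the values below was not tested.

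Promoter sequence from RefSeq was at hand for 9 members in 16 windows, each running from 250 bases before to 50 after an annotated start (GRCm38, also called mm10). The upstream parts of 3 are shown: Bbc3, for which the family was picked, Bcl2l1, which was higher with FGF2 and lower with the knockdown on both days, and Mcl1, the member with the highest level. Capitals mark the letters GGAATG, read on either strand, which the TEAD partners of Yap and Taz are known to bind.
Bbc3: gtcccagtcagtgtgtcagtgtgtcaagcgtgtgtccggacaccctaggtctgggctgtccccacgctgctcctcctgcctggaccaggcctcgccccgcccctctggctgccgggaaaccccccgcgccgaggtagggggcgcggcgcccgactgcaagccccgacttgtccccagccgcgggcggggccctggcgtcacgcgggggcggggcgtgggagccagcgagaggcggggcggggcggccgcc
Bcl2l1: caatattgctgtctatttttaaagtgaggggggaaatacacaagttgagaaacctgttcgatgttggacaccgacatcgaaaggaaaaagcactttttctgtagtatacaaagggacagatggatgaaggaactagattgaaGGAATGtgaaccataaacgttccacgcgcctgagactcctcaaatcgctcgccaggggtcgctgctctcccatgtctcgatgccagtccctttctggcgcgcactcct
Mcl1: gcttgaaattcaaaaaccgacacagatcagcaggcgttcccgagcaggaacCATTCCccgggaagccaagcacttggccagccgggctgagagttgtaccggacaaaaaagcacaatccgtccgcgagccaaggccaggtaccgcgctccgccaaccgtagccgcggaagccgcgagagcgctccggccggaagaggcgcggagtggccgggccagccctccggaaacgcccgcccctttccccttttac
The Bbc3 stretch lies at chr7:16309333-16309582 on the plus strand, that of Bcl2l1 at chr2:152831729-152831978 on the minus strand and that of Mcl1 at chr3:95658471-95658720 on the plus strand. Both the other Bbc3 windows also lacked these letters. Bcl2l1 held them in 1 of its 3 windows, the one shown, at position -108 from its start and Mcl1, on the reverse strand, at -199. Of the 16 windows 2 held GGAATG, against 14.7% of 32851 windows of all genes. The AP-1 letters TGANTCA stood in 0 of 16 (7.81% of all windows) and the ETS letters CCGGAAG in 3, 1 each of Bcl2l11, Bcl2l1 and Mcl1 (8.86% of all). GGAATG and CCGGAAG share the letters GGAA, and a match is a description of the letters only.

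Levels are given as CPM (counts scaled to the library total after TMM correction) for 1 gene across libraries, and as CPM per kilobase of exon where genes are set side by side. Mcl1 had the highest level per kilobase of the 10 members in all 6 groups, from 38.5 ± 0.858 CPM per kilobase in d2.5 Ctrl+vehicle to 69.1 ± 2.97 in d5 Ctrl+vehicle (SD, n = 3). Bak1 was second in the 3 d2.5 groups and in d5 Ctrl+vehicle, and Bmf second in d5 Ctrl+FGF2 and d5 Y/T dKD+FGF2. Pmaip1 was last in 5 groups, and in d5 Y/T dKD+FGF2 the last was Bbc3 (1.51 ± 0.0282 CPM per kilobase). Neighbours in this order overlapped in 4 places: Bid with Bcl2l11 and Bcl2l11 with Bbc3 in d2.5 Ctrl+vehicle, Bcl2l1 with Bax in d2.5 Ctrl+FGF2, and Bax with Bid in d5 Ctrl+vehicle. Over the 6 group means of CPM, Bmf spanned the widest range, 21.1-fold from 6.55 to 138 CPM, followed by Bcl2l11 with 6.43-fold and Bbc3 with 4.52-fold. Bak1 (1.73-fold) and Mcl1 (1.80-fold) spanned the narrowest.

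**Figure D1:**
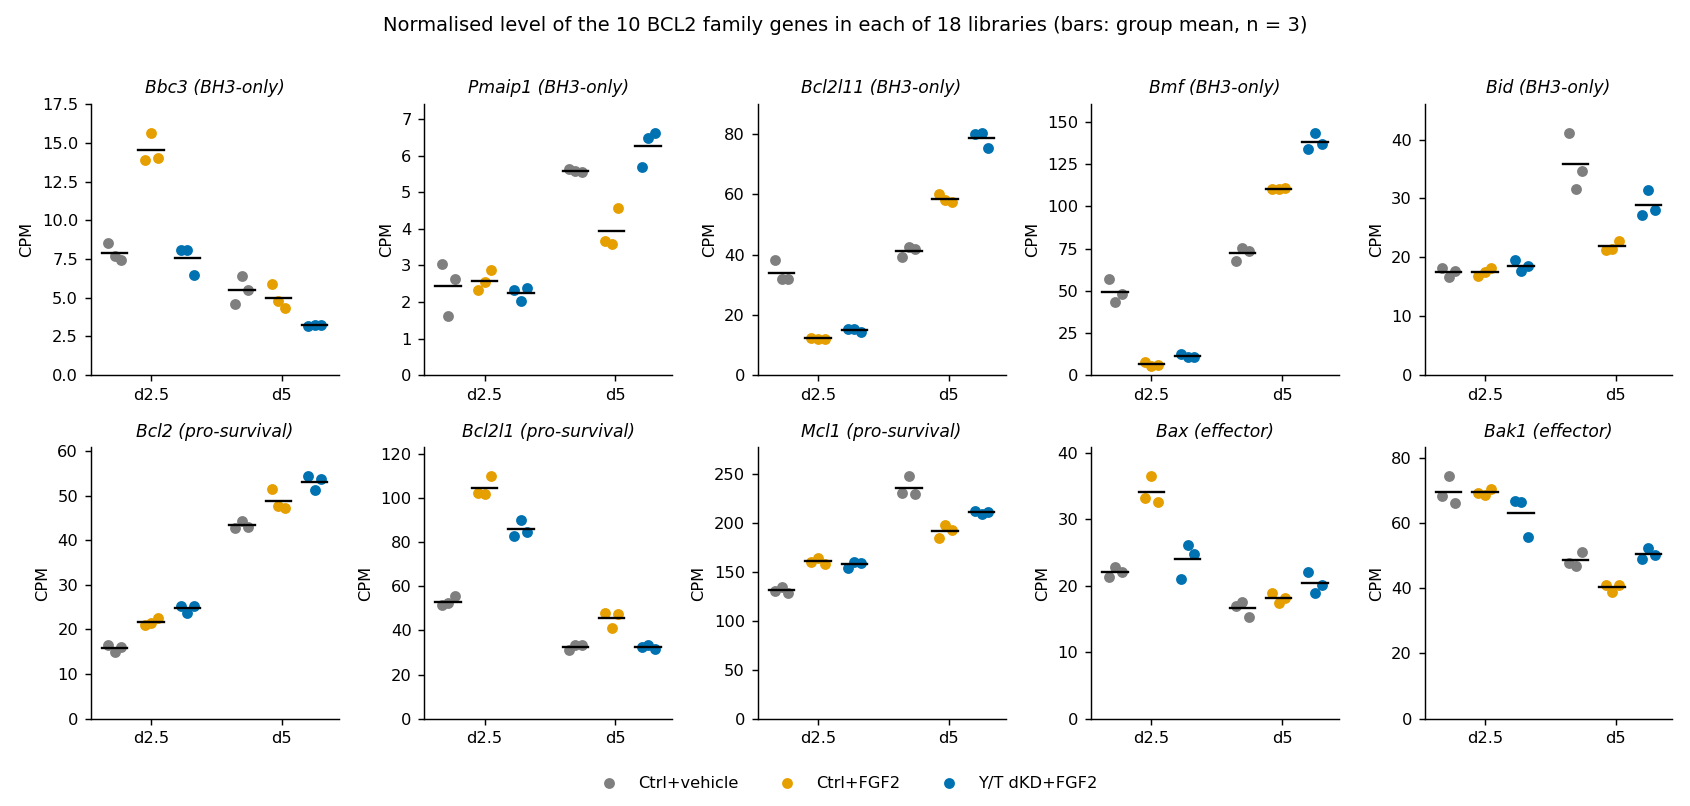
Normalised level (CPM, y axis from 0, own scale per gene) of each of the 10 genes in the 18 libraries, in 3 groups at d2.5 and d5. Dots are libraries and black bars group means (n = 3). Bmf lay at 5.68 to 7.75 CPM in d2.5 Ctrl+FGF2 and at 110.5 to 111 CPM in d5 Ctrl+FGF2.

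Of the BH3-only genes, Bbc3 (Puma; chr7:16308393-16318205, plus strand) binds all pro-survival proteins. Its d2.5 level was 8.56, 7.68 and 7.42 CPM in Ctrl+vehicle, 13.9, 15.6 and 14.0 CPM in Ctrl+FGF2 and 8.12, 8.09 and 6.48 CPM in Y/T dKD+FGF2. These values chose the family. The Ctrl+FGF2 libraries stood above all others (log2 difference 0.87, SE 0.11, against Ctrl+vehicle), and Y/T dKD+FGF2 overlapped Ctrl+vehicle. At d5 the level was 4.62, 6.42 and 5.48 CPM in Ctrl+vehicle, 5.88, 4.80 and 4.31 CPM in Ctrl+FGF2 and 3.15, 3.24 and 3.26 CPM in Y/T dKD+FGF2. All 3 knockdown libraries lay below the other 6, while Ctrl+FGF2 and Ctrl+vehicle overlapped. In edgeR's quasi-likelihood test, Bbc3 fell by 0.64 on the log2 scale with the knockdown at d5 (SE 0.18, adjusted p = 0.0109) and by 0.78 against Ctrl+vehicle (SE 0.18, adjusted p = 0.00173), and its d5 difference between Ctrl+FGF2 and Ctrl+vehicle was -0.14 (SE 0.16, adjusted p = 0.504). These levels rest on 32 to 77 counts per library at d5. The d5 call against Ctrl+FGF2 was lost in DESeq2 (adjusted p = 0.0601) and without Ctrl+FGF2 replicate 1 (log2 change -0.51, edgeR adjusted p = 0.0562), with adjusted p between 0.00509 and 0.0601 over 18 alternatives. In bulk libraries fewer cells of a type and less RNA per cell cannot be told apart, here and for every gene below.

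Bmf (chr2:118528757-118549687, minus strand) and Bcl2l11 (Bim; chr2:128126038-128162547, plus strand), BH3-only genes tied to loss of attachment and of growth factors, had the same order of groups. Bmf lay at 57.2, 43.0 and 48.2 CPM in d2.5 Ctrl+vehicle, at 7.75, 5.68 and 6.22 CPM in Ctrl+FGF2 and at 12.8, 10.6 and 11.0 CPM in Y/T dKD+FGF2. No groups overlapped at d2.5, with Ctrl+FGF2 lowest (log2 difference -2.93, SE 0.11, against Ctrl+vehicle) and the knockdown 0.79 (SE 0.14) above it. At d5 Bmf lay at 67.4, 75.6 and 73.4 CPM in Ctrl+vehicle, at 110.5, 110.5 and 111 CPM in Ctrl+FGF2 and at 134, 143 and 137 CPM in Y/T dKD+FGF2. The order at d5 was thus Ctrl+vehicle lowest and Y/T dKD+FGF2 highest, again with no overlap. Bmf rose with FGF2 at d5 by 0.63 (SE 0.05, edgeR adjusted p = 8.12e-09) and with the knockdown by 0.32 (SE 0.04, edgeR adjusted p = 2.21e-05) on the log2 scale. Bcl2l11 lay at 38.3, 31.9 and 32.1 CPM in d2.5 Ctrl+vehicle, 12.5, 12.1 and 12.2 CPM in Ctrl+FGF2 and 15.4, 15.2 and 14.3 CPM in Y/T dKD+FGF2. Its d2.5 log2 difference was -1.49 (SE 0.08) with FGF2 and 0.28 (SE 0.10) with the knockdown. At d5 Bcl2l11 lay at 39.2, 42.5 and 41.9 CPM in Ctrl+vehicle, 60.0, 58.2 and 57.6 CPM in Ctrl+FGF2 and 80.0, 80.4 and 75.5 CPM in Y/T dKD+FGF2. No d5 groups overlapped, and Bcl2l11 rose with FGF2 by 0.52 (SE 0.05, edgeR adjusted p = 3.92e-07) and with the knockdown by 0.42 (SE 0.05, edgeR adjusted p = 3.00e-06). Against Ctrl+vehicle the d5 knockdown libraries had 1.92-fold the Bmf RNA and 1.92-fold the Bcl2l11 RNA.

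Bid (chr6:120891930-120916853, minus strand), which caspase-8 cleaves to link death receptors to mitochondria, differed in direction from Bmf and Bcl2l11 with FGF2 at d5 and rose like them with the knockdown. Its d5 libraries held 41.1, 31.7 and 34.6 CPM in Ctrl+vehicle, 21.3, 21.5 and 22.8 CPM in Ctrl+FGF2 and 27.2, 31.4 and 28.1 CPM in Y/T dKD+FGF2, with no overlap. Bid fell by 0.69 with FGF2 (SE 0.09, edgeR adjusted p = 6.82e-06) and rose by 0.40 with the knockdown (SE 0.09, edgeR adjusted p = 0.00313) on the log2 scale. Against Ctrl+vehicle, Bid was lower in Y/T dKD+FGF2 (-0.29, SE 0.09, edgeR adjusted p = 0.0117), a call that was lost without Ctrl+vehicle replicate 1 (-0.19, adjusted p = 0.0725) or Y/T dKD+FGF2 replicate 1 (-0.25, adjusted p = 0.0622), with adjusted p between 0.000819 and 0.0725 over 18 alternatives in edgeR and DESeq2. At d2.5 Bid lay between 16.7 and 19.6 CPM in all 9 libraries, and every pair of groups overlapped.

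Pmaip1 (Noxa; chr18:66458533-66465565, plus strand), which mainly binds Mcl1, had the lowest counts of the family, 25 to 78 per library. At d2.5 it lay between 1.61 and 3.04 CPM with all groups overlapping. At d5 it lay at 5.63, 5.58 and 5.57 CPM in Ctrl+vehicle, 3.68, 3.58 and 4.58 CPM in Ctrl+FGF2 and 5.70, 6.48 and 6.62 CPM in Y/T dKD+FGF2. The Ctrl+FGF2 libraries were below the rest. Pmaip1 rose with the knockdown by 0.66 (SE 0.15, edgeR adjusted p = 0.00242) and fell with FGF2 by 0.49 (SE 0.15, edgeR adjusted p = 0.0134). The call with FGF2 was lost in DESeq2 (adjusted p = 0.0826) and without Ctrl+FGF2 replicate 2 (log2 change -0.42, edgeR adjusted p = 0.0581), with adjusted p between 0.00853 and 0.0826 over 18 alternatives.

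Among the pro-survival genes, Bcl2l1 (Bcl-xL; chr2:152780668-152831728, minus strand) was highest in Ctrl+FGF2 on both days. Bcl2l1 lay at 51.4, 52.3 and 55.6 CPM in d2.5 Ctrl+vehicle, 102, 102 and 109.8 CPM in Ctrl+FGF2 and 82.6, 90.2 and 84.8 CPM in Y/T dKD+FGF2. At d5 it lay at 31.1, 33.2 and 33.3 CPM in Ctrl+vehicle, 47.8, 41.3 and 47.4 CPM in Ctrl+FGF2 and 32.7, 33.5 and 31.7 CPM in Y/T dKD+FGF2. Ctrl+FGF2 was above both other groups on each day, and at d5 the knockdown overlapped Ctrl+vehicle. At d2.5 the log2 difference was 0.97 (SE 0.05) with FGF2 and -0.29 (SE 0.05) with the knockdown. At d5 Bcl2l1 rose by 0.49 with FGF2 (SE 0.07, edgeR adjusted p = 8.35e-06) and fell by 0.48 with the knockdown (SE 0.07, edgeR adjusted p = 1.89e-05). Between Y/T dKD+FGF2 and Ctrl+vehicle the d5 difference was 0.0097 (SE 0.07, edgeR adjusted p = 0.926).

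Mcl1 (chr3:95658788-95663176, plus strand), a short-lived protein that Pmaip1 and Bcl2l11 bind, lay at 131, 135 and 129 CPM in d2.5 Ctrl+vehicle, 160.3, 164 and 158 CPM in Ctrl+FGF2 and 154, 160.4 and 159.6 CPM in Y/T dKD+FGF2. Its d5 level was 231, 248 and 229.6 CPM in Ctrl+vehicle, 185, 198 and 193 CPM in Ctrl+FGF2 and 212, 209.8 and 212 CPM in Y/T dKD+FGF2. Ctrl+vehicle was the lowest group at d2.5 and the highest at d5. Mcl1 fell with FGF2 at d5 by 0.28 (SE 0.04, edgeR adjusted p = 1.46e-05) and rose with the knockdown by 0.13 (SE 0.04, edgeR adjusted p = 0.0188) on the log2 scale. The rise was lost without Ctrl+FGF2 replicate 1 (0.10, edgeR adjusted p = 0.0780), Y/T dKD+FGF2 replicate 1 (0.12, adjusted p = 0.0668) or Y/T dKD+FGF2 replicate 3 (0.13, adjusted p = 0.0535), with adjusted p between 0.00554 and 0.0780 over 18 alternatives. Bcl2 (chr1:106538178-106714274, minus strand), the founder of the family, lay between 14.97 and 16.6 CPM in d2.5 Ctrl+vehicle, 20.9 and 22.6 in Ctrl+FGF2 and 23.7 and 25.3 in Y/T dKD+FGF2. At d5 Bcl2 lay between 42.8 and 44.4, 47.3 and 51.6, and 51.3 and 54.4 CPM in that order, and only the last pair of groups overlapped. It rose with FGF2 at d5 by 0.18 (SE 0.06, edgeR adjusted p = 0.0123), a call lost in DESeq2 (adjusted p = 0.107) and without Ctrl+FGF2 replicate 1 (0.14, edgeR adjusted p = 0.0672), with adjusted p between 0.00552 and 0.107 over 18 alternatives. The difference with the knockdown at d5 was 0.12 (SE 0.05, edgeR adjusted p = 0.110), and that against Ctrl+vehicle was a rise of 0.30 (SE 0.05, edgeR adjusted p = 0.000280).

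The effectors Bax (chr7:45461697-45466898, minus strand) and Bak1 (chr17:27019810-27029009, minus strand), which form the pore, lay lower with the knockdown than in Ctrl+FGF2 at d2.5, and at d5 the difference lay above 0 and passed the threshold for Bak1 alone. Bax lay at 21.3, 22.8 and 22.0 CPM in d2.5 Ctrl+vehicle, 33.2, 36.5 and 32.7 CPM in Ctrl+FGF2 and 21.03, 26.1 and 24.8 CPM in Y/T dKD+FGF2. Ctrl+FGF2 was above both others at d2.5 (log2 difference 0.62, SE 0.07, with FGF2 and -0.51, SE 0.07, with the knockdown). At d5 Bax lay at 17.0, 17.6 and 15.4 CPM in Ctrl+vehicle, 18.8, 17.3 and 18.2 CPM in Ctrl+FGF2 and 22.1, 18.9 and 20.1 CPM in Y/T dKD+FGF2. The lowest knockdown library and the highest Ctrl+FGF2 library nearly met, and overlapped on library totals without TMM. Neither the difference with FGF2 (0.13, SE 0.09, edgeR adjusted p = 0.239) nor that with the knockdown (0.16, SE 0.09, edgeR adjusted p = 0.179) passed. Bax rose in Y/T dKD+FGF2 against Ctrl+vehicle by 0.30 (SE 0.09, edgeR adjusted p = 0.0127). This call was lost in DESeq2 (adjusted p = 0.0810), without Ctrl+vehicle replicate 3 (0.24, edgeR adjusted p = 0.0688) and without Y/T dKD+FGF2 replicate 1 (0.23, edgeR adjusted p = 0.0839), with adjusted p between 0.00915 and 0.0839 over 18 alternatives. Bak1 lay between 55.8 and 74.3 CPM in the 9 libraries of d2.5, with a log2 difference of -0.15 (SE 0.06) with the knockdown. At d5 it lay between 46.9 and 51.1 CPM in Ctrl+vehicle, 38.9 and 41.1 in Ctrl+FGF2 and 48.9 and 52.5 in Y/T dKD+FGF2, with Ctrl+FGF2 below the rest. Bak1 fell by 0.26 with FGF2 (SE 0.06, edgeR adjusted p = 0.00110) and rose by 0.32 with the knockdown (SE 0.06, edgeR adjusted p = 0.000250) on the log2 scale. Bax overlaps Gm45808, Bid overlaps Gm44260 and Bcl2 overlaps Gm37053 on the same strand, so their counts are uncertain in the shared stretches. Bid and Bak1 also overlap Bcl2l13 and Ggnbp1 on the opposite strand, which strand-specific counts keep apart.

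Counted over the family, 8 of the 10 members passed the threshold (edgeR adjusted p under 0.05) for FGF2 at d5, 4 higher (Bcl2l11, Bmf, Bcl2 and Bcl2l1) and 4 lower (Pmaip1, Bid, Mcl1 and Bak1), where 47.2% of all 13304 genes tested passed (23.5% higher and 23.7% lower). For the knockdown at d5, 8 of 10 passed, 6 higher (Pmaip1, Bcl2l11, Bmf, Bid, Mcl1 and Bak1) and 2 lower (Bbc3 and Bcl2l1), where 31.7% of all genes did (15.6% higher and 16.1% lower). Of the 5 BH3-only members 4 rose and 1, Bbc3, fell with the knockdown at d5, with a median log2 change of 0.40 (0.0034 over all genes tested). Y/T dKD+FGF2 differed from Ctrl+vehicle at d5 in 7 of 10 members, 4 higher and 3 lower, where 41.8% of all genes passed (20.7% higher and 21.1% lower). The FGF2 and knockdown comparisons share the Ctrl+FGF2 libraries, so their values are set side by side and not tested against each other. At d2.5, from which the family was picked, 7, 5 and 6 of 10 members passed in the same order of comparisons, where 67.6%, 24.5% and 69.8% of 13677 genes did, and nothing is read from those counts.

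**Figure D2:**
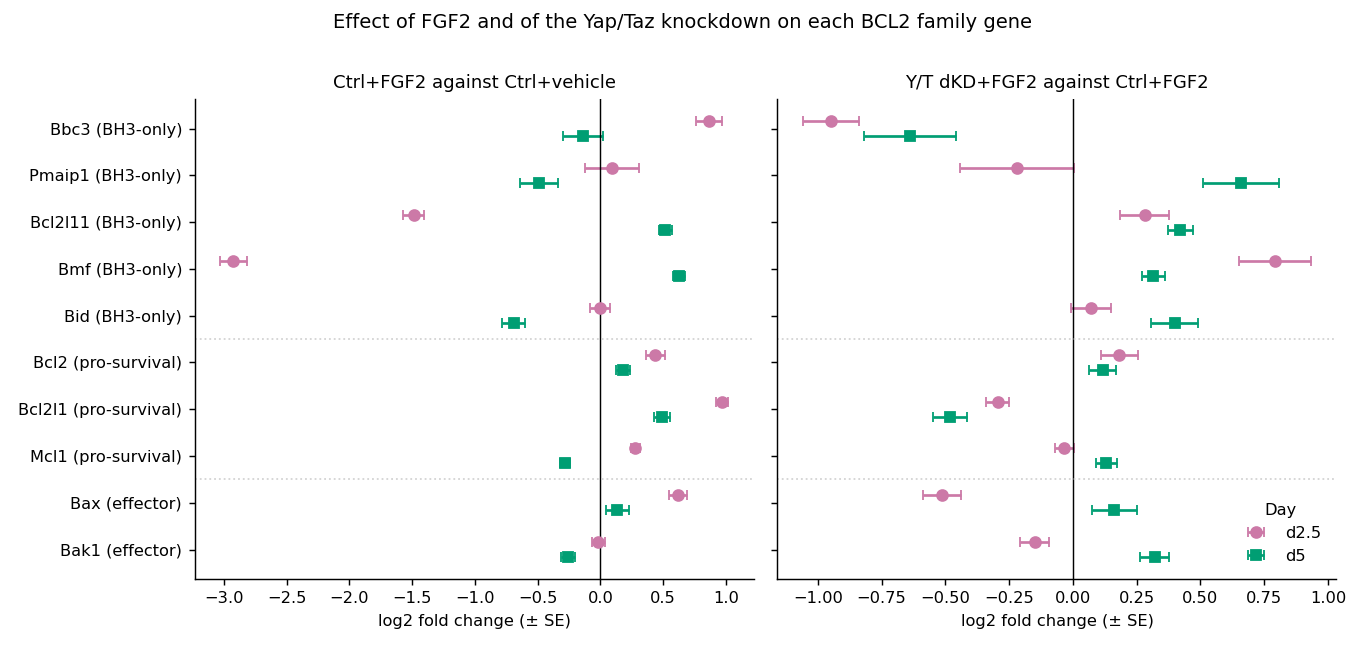
Log2 fold change (x axis, ± SE) of each gene (y axis) for FGF2 (left panel, against Ctrl+vehicle) and for the knockdown (right panel, against Ctrl+FGF2) at d2.5 (circles) and d5 (squares), 3 libraries per group, with a separate x scale in each panel. Bmf and Bcl2l11 lay left of 0 with FGF2 at d2.5 (-2.93 and -1.49) and right of it at d5 (0.63 and 0.52).

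Set against the d2.5 effect, the d5 effect of FGF2 was higher by 3.53 (SE 0.12) for Bmf and by 1.98 (SE 0.10) for Bcl2l11 on the log2 scale. It was lower for Bbc3 (-1.03, SE 0.19), Bid (-0.71, SE 0.12), Pmaip1 (-0.61, SE 0.26), Mcl1 (-0.59, SE 0.05), Bax (-0.51, SE 0.12), Bcl2l1 (-0.50, SE 0.08), Bcl2 (-0.28, SE 0.09) and Bak1 (-0.27, SE 0.09). The effect of the knockdown was higher at d5 for Pmaip1 (0.88, SE 0.26), Bax (0.67, SE 0.12), Bak1 (0.47, SE 0.09), Bid (0.33, SE 0.12) and Mcl1 (0.16, SE 0.05), and lower for Bmf (-0.48, SE 0.15) and Bcl2l1 (-0.19, SE 0.08). It differed by 0.31 (SE 0.21) for Bbc3, 0.14 (SE 0.11) for Bcl2l11 and -0.07 (SE 0.08) for Bcl2. These differences contain the d2.5 contrasts and are given with no test.

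Between d2.5 and d5 the 9 members other than Bbc3 all passed the threshold in each of the 3 groups, 6 higher (Pmaip1, Bcl2l11, Bmf, Bid, Bcl2 and Mcl1) and 3 lower (Bcl2l1, Bax and Bak1) at d5. Bbc3, described with no test since d2.5 chose it, was lower at d5 by log2 differences of -0.51 (SE 0.14) in Ctrl+vehicle, -1.54 (SE 0.12) in Ctrl+FGF2 and -1.23 (SE 0.16) in Y/T dKD+FGF2. Of 14198 genes, 66.4% passed in Ctrl+vehicle (33.1% higher and 33.2% lower), 80.0% in Ctrl+FGF2 (41.2% and 38.8%) and 78.4% in Y/T dKD+FGF2 (40.3% and 38.1%), and the labels do not separate the day from the batch. Bmf was higher at d5 by 0.55 (SE 0.07) in Ctrl+vehicle, 4.07 (SE 0.09) in Ctrl+FGF2 and 3.60 (SE 0.09) in Y/T dKD+FGF2 on the log2 scale. Bcl2l11 was higher by 0.28 (SE 0.06), 2.26 (SE 0.07) and 2.39 (SE 0.07) in the same order. Bcl2 was higher by 1.45 (SE 0.06) in Ctrl+vehicle, and Mcl1 by 0.84 (SE 0.04). Bcl2l1 was lower at d5 in all groups (-0.70, SE 0.06, in Ctrl+vehicle, -1.21, SE 0.05, in Ctrl+FGF2 and -1.40, SE 0.06, in Y/T dKD+FGF2). The adjusted p in edgeR ranged from 1.21e-25 for Bmf in Ctrl+FGF2 to 0.0110 for Bax in Y/T dKD+FGF2. This last call was lost without replicate 2 of Y/T dKD+FGF2 at d2.5 (-0.19, edgeR adjusted p = 0.0559) or at d5 (-0.18, edgeR adjusted p = 0.0789).

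Summed over members per kilobase, the 3 roles differed in weight between groups. The BH3-only sum was 23.2 ± 2.47 CPM per kilobase in d2.5 Ctrl+vehicle, 15.5 ± 0.326 in Ctrl+FGF2 and, lowest, 13.7 ± 0.800 in Y/T dKD+FGF2 (SD, n = 3). These d2.5 sums, and the ratios made from them, hold the Bbc3 values that chose the family. Bbc3 lay at 6.84 CPM per kilobase in d2.5 Ctrl+FGF2 and at 3.56 in Y/T dKD+FGF2. The group means of Bmf, Bcl2l11 and Bid were higher with the knockdown at d2.5, and that of Pmaip1 was lower. Nothing is read from the low d2.5 sum with the knockdown. At d5 the BH3-only sum was 33.6 ± 0.0708, 38.3 ± 0.361 and 48.0 ± 1.79 CPM per kilobase, with no overlap of groups. The pro-survival sum was 51.8 ± 0.571, 72.2 ± 0.683 and 67.7 ± 1.68 CPM per kilobase at d2.5 and 80.9 ± 3.20, 71.5 ± 1.13 and 74.7 ± 0.437 at d5. Ctrl+vehicle had the lowest pro-survival sum at d2.5. At d5 it had the highest with TMM scaling, but on library totals without TMM its libraries (71.2 to 75.1 CPM per kilobase) overlapped those of Y/T dKD+FGF2 (70.1 to 72.1), with Ctrl+FGF2 at 68.9 to 70.3. The effector sum was lower at d5 (28.3 to 33.9 CPM per kilobase as group means) than at d2.5 (41.4 to 50.5). The ratio of the BH3-only to the pro-survival sum was 0.448 ± 0.0521 in d2.5 Ctrl+vehicle, 0.215 ± 0.00321 in Ctrl+FGF2 and close to that, 0.202 ± 0.0163, in Y/T dKD+FGF2, and 0.416 ± 0.0152, 0.536 ± 0.0129 and 0.643 ± 0.0276 at d5.

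**Figure D3:**
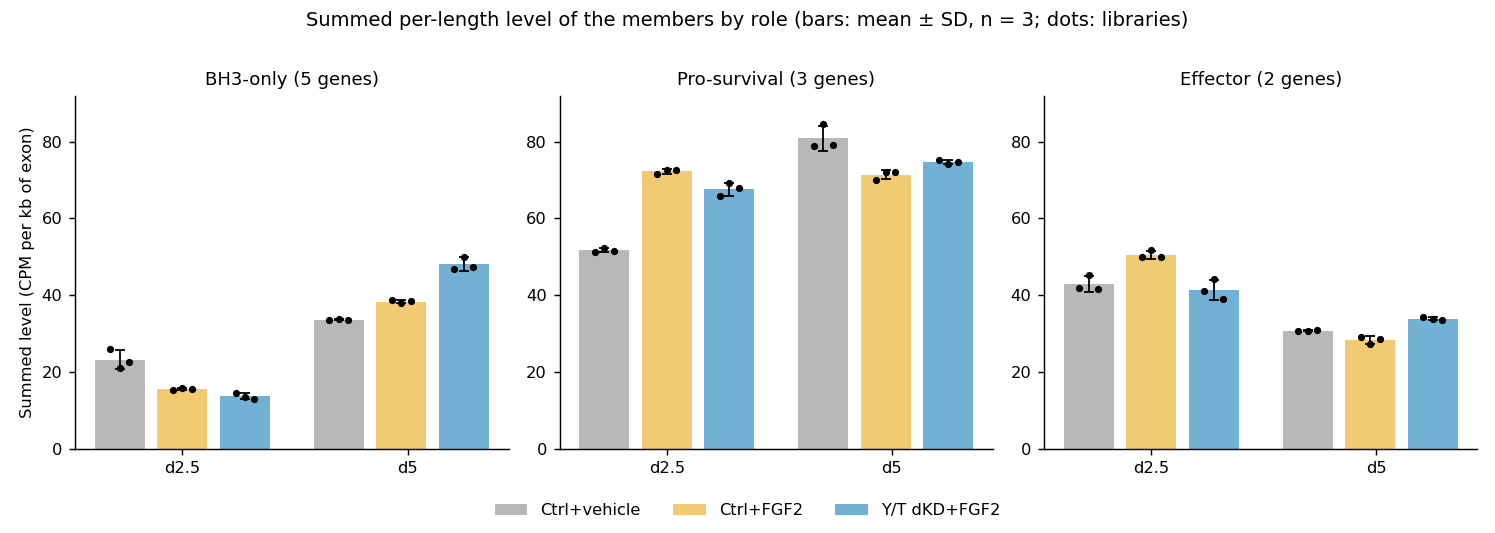
Summed level per length (CPM per kilobase of exon, y axis from 0) of the 5 BH3-only, 3 pro-survival and 2 effector genes. Bars are means ± SD of 3 libraries and dots the libraries. The BH3-only sum was highest in d5 Y/T dKD+FGF2, at 46.7 to 50.1 CPM per kilobase.

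Within the BH3-only sum, Bbc3 held its largest share where Bmf held its smallest. Bbc3 made up 16.1% ± 0.964 of it in d2.5 Ctrl+vehicle, 44.1% ± 2.15 in Ctrl+FGF2 and again less, 26.0% ± 2.45, in Y/T dKD+FGF2 (SD, n = 3), and between 3.15% and 7.72% as group means at d5. Bmf made up 40.5% ± 1.55, 8.06% ± 1.49 and 15.9% ± 0.863 at d2.5, and 40.9% ± 2.34, 54.9% ± 0.518 and 54.7% ± 0.277 at d5. The d2.5 levels of Bbc3 chose the family, so nothing is read from its d2.5 shares. Shares of 1 sum are also coupled: a lower Bmf level alone raises the share of Bbc3.

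**Figure D4:**
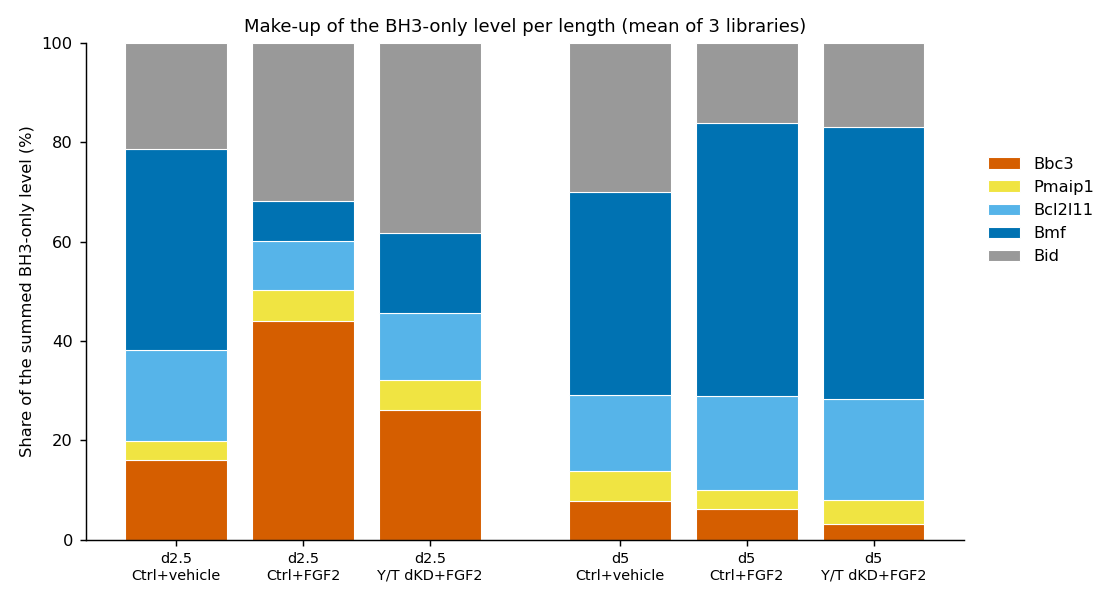
Share (%, y axis) of each of the 5 BH3-only genes in their summed level per kilobase, as the mean of 3 libraries in each of the 6 groups (x axis). Bbc3 is the bottom segment, at 44.1% in d2.5 Ctrl+FGF2 and 3.15% in d5 Y/T dKD+FGF2. The d2.5 levels of Bbc3 chose the family, and the shares within a group are coupled.

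Of 17 further genes, listed as BCL2 family or BH3-like (among them Becn1 and Huwe1), 9 passed the filter on low counts. At d5 with FGF2 (47.2% of all genes past the threshold), 2 rose and 1 fell. Bad, a BH3-only protein held inactive by growth factor kinases, rose by 0.29 (SE 0.07, edgeR adjusted p = 0.00276) and Bnip3l, which acts in removal of mitochondria, by 0.14 (SE 0.04, edgeR adjusted p = 0.0125). Bcl2l2 (Bcl-w, pro-survival) fell by 0.24 (SE 0.05, edgeR adjusted p = 0.000719). With the knockdown at d5, Bnip3l alone of the 9 passed and fell by 0.19 (SE 0.04, edgeR adjusted p = 0.00220). Bok, the effector-like gene, differed by 0.18 (SE 0.10) with the knockdown at d5, Bnip3 by -0.07 (SE 0.06), Becn1 by 0.0042 (SE 0.06), Bcl2l12 by -0.06 (SE 0.17), Bcl2l13 by 0.07 (SE 0.06) and Huwe1, the ligase that marks Mcl1 for decay, by 0.07 (SE 0.03), none past the threshold. Bcl2a1a, Bcl2a1b, Bcl2a1d, Bcl2l10 and Bcl2l14 were listed at 0 in every library, and Bik, Hrk and Bcl2l15 held at most 4 counts. The Bcl2a1 genes are near-identical copies, and reads that fit several places were not counted.

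Downstream of the family, and where 47.2% of all genes passed with FGF2 at d5 and 31.7% with the knockdown, 5 of 13 genes of the apoptosome and caspases passed with FGF2 at d5 and 4 with the knockdown. Cycs, cytochrome c itself, fell by 0.18 with FGF2 (SE 0.05, edgeR adjusted p = 0.00837) and rose by 0.26 with the knockdown (SE 0.05, edgeR adjusted p = 0.000795). Casp9, which the apoptosome activates, rose by 0.18 with FGF2 (SE 0.07, edgeR adjusted p = 0.0352) and fell by 0.54 with the knockdown (SE 0.07, edgeR adjusted p = 1.29e-05). With FGF2, Casp6 rose by 0.53 (SE 0.09, edgeR adjusted p = 5.75e-05) and Casp8 fell by 0.17 (SE 0.06, edgeR adjusted p = 0.0245). Of 12 genes of caspase inhibitors and mitochondrial release, 5 passed with FGF2 and 2 with the knockdown. Birc5 (survivin), which also serves cell division, fell by 1.74 with FGF2 (SE 0.24, edgeR adjusted p = 1.48e-05) and rose by 0.84 with the knockdown (SE 0.27, edgeR adjusted p = 0.0242). Smaller changes with FGF2 were those of Birc3 (0.26), Xiap (0.10) and Vdac3 (-0.27), and Birc2 fell by 0.28 with the knockdown (SE 0.06, edgeR adjusted p = 0.00175).

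Of 18 known regulators of BH3-only genes 17 were tested at d5, of which 6 rose and 6 fell with FGF2, and 2 rose and 4 fell with the knockdown, against 47.2% and 31.7% of all genes past the threshold. Foxo3, a factor that activates Bcl2l11 and Bbc3, rose by 0.64 with FGF2 (SE 0.04, edgeR adjusted p = 4.80e-10) and fell by 0.57 with the knockdown (SE 0.04, edgeR adjusted p = 3.67e-09). Atf4 and Ddit3, factors of the stress response, fell with FGF2 by 1.55 (SE 0.10, edgeR adjusted p = 1.46e-09) and by 1.48 (SE 0.16, edgeR adjusted p = 5.31e-07). Mapk3 (Erk1) rose with FGF2 by 0.49 (SE 0.05, edgeR adjusted p = 3.35e-07). Jun rose with the knockdown by 0.62 (SE 0.06, edgeR adjusted p = 6.66e-07), Myc by 0.58 (SE 0.11, edgeR adjusted p = 0.000530), and Foxo4 fell by 0.20 (SE 0.07, edgeR adjusted p = 0.0334). Of 20 p53 targets outside the family 19 were tested. With FGF2 at d5 6 rose and 5 fell, and with the knockdown 4 rose and 6 fell, against those same shares of all genes. Plk2 (1.07, SE 0.07) and Sesn1 (0.83, SE 0.06) rose and Sesn2 (-1.45, SE 0.18) and Polk (-0.48, SE 0.06) fell with FGF2, with edgeR adjusted p between 6.44e-10 and 3.29e-06. Cdkn1a, the cell cycle inhibitor p21, rose with the knockdown by 0.48 (SE 0.05, edgeR adjusted p = 5.12e-07) and Ei24 by 0.36 (SE 0.05, edgeR adjusted p = 4.97e-05), while Perp fell by 2.40 (SE 0.17, edgeR adjusted p = 6.71e-09) and Fas by 0.83 (SE 0.11, edgeR adjusted p = 8.13e-06). The median log2 change of the 4 lists lay between -0.04 and 0.05 in both d5 comparisons.

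The 5 genes whose log2 CPM followed that of Bbc3 most closely over the 18 libraries, after each day's mean was subtracted, were Wwtr1 (Pearson's r = 0.918), Cenpb (0.898), Flot2 (0.893), Degs1 (0.879) and Tnfaip3 (0.870), out of 11730 genes. The libraries share their groups and their knockdown, and Wwtr1 is itself a target of the siRNA. The d2.5 libraries that chose the family by Bbc3 are among the 18, so genes with that pattern are bound to rank high. Each r here is a description with no test. Wwtr1 was higher with FGF2 at d2.5 (log2 difference 0.65, SE 0.04) and lower with the knockdown on both days (-0.72, SE 0.04, and -0.80, SE 0.04). Within the family, r with Bbc3 was highest for Bcl2l1 (0.545, rank 418 of 11730), Bax (0.431) and Mcl1 (0.363), near 0 for Bak1, Bid, Bcl2 and Pmaip1, and lowest for Bcl2l11 (-0.632) and Bmf (-0.615).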

How the data were processed

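RNA was purified from O9-1 cells (RNeasy mini plus), and libraries of polyadenylated RNA were made with a SMARTER mRNA-Seq kit. The submitters' processing notes name FastQC, STAR, Picard, featureCounts and mm10, with no role or version. The authors deposited raw counts per gene for each library, unstranded and for each strand. The counts of the reverse strand were used, since 96.0% to 96.6% of stranded counts lay there. Reads assigned to no gene (27.0% to 34.4%) were left out of library sizes and tests. Counts on genes, 10377151 to 14698525 per library (median 12330911), set the precision: the members with few counts, Pmaip1 and Bbc3, are the least precise.

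Groups within a day were compared in edgeR 4.0.16 (R 4.3.3) by the quasi-likelihood test with TMM scaling, filterByExpr and Benjamini-Hochberg adjustment over all genes tested, in 1 fit of the 9 libraries of that day. The days were compared in 1 fit of all 18 libraries. The threshold was an adjusted p of 0.05. CPM used the TMM-scaled library sizes, and CPM per kilobase the summed exon length of GENCODE M21, to which 55154 of 55335 identifiers were matched. SD is over libraries (n = 3 per group). SE is the absolute log2 change divided by the square root of the F value of the quasi-likelihood test. It thus rests on the whole fit of 9 or 18 libraries and not on 3 libraries alone. The fits were tested on simulated counts in which few genes changed, in 1 group, with a fixed spread. Changes in a large share of genes, as seen here, were not simulated. Alternatives were DESeq2 1.42.0, other scalings, filters, strand and threshold, a replicate block, other sets of libraries in the fit, and leaving out each library.

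The members and lists were chosen with earlier results of these data known. Named were all 10 members, each other BCL2 family or BH3-like gene past the filter, and the 5 genes most like Bbc3. In 4 further lists, genes called at d5 without overlap of libraries and with mean log2 CPM of at least 1 were ranked. The 2 largest rises and falls per d5 comparison were named. A gene that this rule names is not reported here. Pmaip1's promoter and protein sequences were not used here.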

Additional observations from a re-analysis of the deposited data

Results flagged for a closer look

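For Bmf, Bcl2l11, Mcl1, Bax and Bak1, every library of 1 group lay above every library of the other at d2.5 and below every one of them at d5, or the reverse. The share of all genes with such a reversal was not counted, so nothing is read from the number of members. The difference of the effects (d5 minus d2.5, log2 scale) was not tested, because the d2.5 comparisons chose the family, and day and batch cannot be told apart. For FGF2 against vehicle it was 3.53 (SE 0.12) for Bmf and 1.98 (SE 0.10) for Bcl2l11, both lower at d2.5 and higher at d5, and -0.59 (SE 0.05) for Mcl1, which was higher at d2.5 and lower at d5. For Y/T dKD+FGF2 against Ctrl+FGF2 it was 0.67 (SE 0.12) for Bax and 0.47 (SE 0.09) for Bak1, both lower at d2.5 and higher at d5. The d5 difference of Bax did not pass the threshold (edgeR adjusted p = 0.179), and its d5 libraries overlapped on library totals without TMM. With the knockdown set against Ctrl+vehicle it was 3.05 (SE 0.12) for Bmf, 2.12 (SE 0.09) for Bcl2l11 and -0.43 (SE 0.05) for Mcl1.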

How the results depend on the processing

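Alternatives were run for the 10 members and not for the other genes named. Every count of members past the threshold stayed within 1.5 times its value over all alternatives run (195 values, those of d2.5 included). A count cannot exceed the 10 members, so this bound was hard to break and little is read from it. Leaving out 1 library gave 7 to 8 members for FGF2, 6 to 8 for the knockdown and 5 to 7 for the knockdown against vehicle at d5. In the main d5 fit 47.2%, 31.7% and 41.8% of all genes passed in that order. The shares of all genes in the alternatives are not given here. At d5, 523 log2 changes kept their direction and side of the threshold, 14 lost their call and 3 turned in sign, and all lost calls are given beside their gene above. The values that turned were near 0 and not called. Bid with FGF2 at d2.5 (-0.0039) was 0.0047 with no filter, 0.0044 with unstranded counts, 0.0075 with all 18 libraries in 1 fit, and -0.038 to 0.024 leaving out 1 library. Leaving out 1 library gave -0.14 to 0.30 for Pmaip1 and -0.050 to 0.039 for Bak1 with FGF2, and -0.36 to 0.081 for Pmaip1 and -0.13 to 0.018 for Bbc3 with the knockdown against vehicle, at d2.5. Bcl2l1 in that comparison at d5 was -0.0013 in DESeq2 and -0.019 to 0.030 leaving out 1 library. The cause was not tested.

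Same-numbered libraries deviated together little (r from -0.07 to 0.03 at d2.5 and -0.06 to 0.11 at d5, over 0.1 in 1 of 9 pairs). Differently numbered libraries had r from -0.04 to 0.09 at d2.5 and -0.12 to 0.05 at d5. The same-numbered d5 pairs of Ctrl+vehicle and Ctrl+FGF2 were all above 0 (0.097, 0.11 and 0.015), and all other same-numbered d5 pairs were below 0. Low r cannot settle whether the numbers pair the samples. With a replicate block, 7, 6 and 6 members passed at d2.5 and 8, 8 and 7 at d5 for FGF2, the knockdown and the knockdown against vehicle. In the main fits 67.6%, 24.5% and 69.8% of all genes passed at d2.5 and 47.2%, 31.7% and 41.8% at d5. Nothing is read from the d2.5 counts.

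On library totals without TMM, which was not run as a test, log2 differences shift by 0.12 (FGF2), -0.03 (the knockdown) and 0.08 (the knockdown against vehicle) at d5, and between the days by -0.24 for vehicle, -0.14 for FGF2 and -0.16 for the knockdown. No member's d5 or day difference turned in sign. Of the libraries that did not overlap with TMM, 3 pairs of groups then did: Bax with the knockdown and Bid with the knockdown against vehicle at d5, and Bcl2l11 between the days in Ctrl+vehicle (0.27 to 0.04 as log2 ratios of mean CPM). Other pairs overlapped with TMM and then did not. These were Bax with FGF2 at d5 (0.12 to 0.24) and Bax between the days with the knockdown (-0.24 to -0.40). Bcl2l1 (0.0031 to 0.086) and Bak1 (0.056 to 0.14) did so with the knockdown against vehicle at d5.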

Other observations

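The ratio of Bcl2 to Bax, a pair whose balance is often used to describe readiness for apoptosis, was given per kilobase and as values with no test. It was 0.124 ± 0.0104 in Ctrl+vehicle, 0.110 ± 0.00886 in Ctrl+FGF2 and, highest, 0.179 ± 0.0259 in Y/T dKD+FGF2 at d2.5 (SD, n = 3), and 0.451 ± 0.0282, 0.464 ± 0.0145 and 0.451 ± 0.0244 at d5. The d5 groups overlapped, and every d5 library lay above every d2.5 library. The ratio of Bcl2l1 to Bax was 0.828 ± 0.0392, 1.06 ± 0.0965 and 1.24 ± 0.0979 at d2.5 and 0.675 ± 0.0624, 0.861 ± 0.0390 and 0.553 ± 0.0521 at d5 in the same order of groups. Mcl1 made up 32.6% to 37.7% of the summed level of the 10 members per kilobase at d2.5 and 39.5% to 47.5% at d5, as group means.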
